A study of Oryctolagus cuniculus with 9 samples.

Results

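The 50 gene rows described here carry the names of nuclear-encoded subunits of the mitochondrial respiratory chain and of ATP synthase. They were taken from 23407 named gene rows by their symbols. All rows were included that begin NDUFA, NDUFB, NDUFC, NDUFS or NDUFV with a number, UQCR, COX4 to COX8, or ATP5. This rule uses no measured value, but the group was chosen with earlier results of these data known. The names gave 30 subunits of complex I, 1 of complex III (UQCRQ), 3 of complex IV (COX4I1, COX6A1 and NDUFA4, which is now counted with complex IV although it bears a complex I name) and 14 of ATP synthase, also called complex V. The other 2 rows, ATP5S and ATP5SL, bear ATP5 names but are not subunits of the enzyme. Many other subunits of complexes III and IV stood in the files under locus identifiers and are described separately.

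The respiratory chain passes electrons from NADH and succinate through complexes I to IV to oxygen and pumps protons across the inner mitochondrial membrane, and ATP synthase uses that gradient to make ATP. A few core subunits are encoded by mitochondrial DNA, while the rest are transcribed in the nucleus, translated in the cytosol and imported. Nearly every cell type expresses the nuclear genes, with high levels in muscle and brown fat, and some complex IV subunits exist as isoforms particular to muscle. Ligamentum flavum is an elastic ligament with few cells in much matrix, and its messenger RNA is a mixture from all cells in the piece taken.

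RNA was sequenced from ligamentum flavum of male New Zealand white rabbits aged 70 weeks, in 9 libraries. Control followed a sham operation (3 libraries), Fused is a fused spinal level (3) and ISC a level loaded by intervertebral stress concentration (3). Per the labels' protocols the rabbits were 18 weeks old at surgery, in which the supraspinal muscle at L3-4 was resected and L2-3 and L4-5 received an instrumented posterolateral fusion. The same protocol text stands on every library, the sham group included. Neither the animal behind each library nor any pooling of tissue is stated. The spread behind each p-value is therefore that of these libraries, and it may be technical.

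Each library held 1233155 to 1869209 reads assigned to genes. Ligament fibroblast markers such as elastin and collagens were read in all 9 libraries, with a summed scaled read count between 5225 and 96429, but TNMD was at 0 in the Fused group. Such sums do not settle how much ligament each library held. Reads of other tissues differed between libraries. Haemoglobin genes took 0.114% to 0.269% of the reads in Control. In replicates 1, 2 and 3 they took 1.58%, 5.68% and 6.45% for Fused but 0.505%, 5.03% and 0.429% for ISC. Skeletal muscle markers were high in Control replicates 1 and 3 and in ISC replicate 1, with mean log2 values of 7.56, 4.62 and 5.47, and lay between 1.24 and 1.80 in the other 6 libraries. In bulk tissue, fewer cells of a type and less RNA per cell cannot be told apart.

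All 50 genes were read in every library, and 49 had a mean scaled read count (reads divided by a size factor of the library, as deposited) of 10 or more. Together they took 47873 reads over the 9 libraries. Levels are compared between genes per kilobase of annotated length, as the mean scaled read count per kilobase over the 9 libraries. COX4I1, the ubiquitous form of a nuclear subunit of cytochrome c oxidase (scaffold Un0327, 92802 to 97740), was highest at 612 ± 93.4 per kilobase (SD, n = 9). It was followed by ATP5E, the epsilon subunit of the ATP synthase motor, at 432 ± 82.0 per kilobase. ATP5A1 and ATP5B, the alpha and beta subunits that form the catalytic head, lay at 348 ± 35.4 and 345 ± 51.9 per kilobase and did not differ beyond their spread. ATP5H and ATP5O, subunits of the stalk, lay at 319 ± 31.9 and 302 ± 56.1 per kilobase. Complex I genes formed a lower and narrower band, from 36.8 per kilobase for NDUFA9 to 148 per kilobase for NDUFB9, with a median of 79.3. The medians were 148 per kilobase for ATP synthase and 180 per kilobase for the 3 complex IV genes, and the only complex III gene, UQCRQ, lay at 120.3 per kilobase.

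ATP5I, a small membrane subunit of ATP synthase, stood far below the other subunits at 6.53 ± 2.97 per kilobase. Its row has 2 exons on scaffold Un0434 (129325 to 130391) and held about 5.11 reads per library, close to the value that 3 reads give, so its level is limited by counting error. The rows of NDUFA3, NDUFA13 and NDUFB1 are annotated as 1 exon each. The NDUFB1 row (chromosome 1, 91621906 to 91622221) shares its symbol with a 3-exon locus to which RefSeq gives this name. Near-identical gene copies can divide reads, and these levels are uncertain for that reason.

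NDUFS1 is a core subunit of the electron-transferring arm of complex I. NDUFS1 (chromosome 7, 146914957 to 146948743) had 94.3, 107 and 113 in Control, 94.1, 121 and 84.2 in Fused, and 97.6, 107 and 131 in ISC, with full overlap of the groups. ATP5A1 (chromosome 9, 87502227 to 87513317) had 548, 608 and 709 in Control, 685, 770.4 and 681 in Fused, and 609, 672 and 615 in ISC. The highest and lowest libraries of both genes differed by less than 2-fold. ATP5B (chromosome 4, 40143010 to 40147990) had 512, 631 and 675 in Control, 589.9, 819.7 and 577 in Fused, and 514, 624 and 612 in ISC. For ATP5B the groups overlapped throughout.

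The genes varied little over the 9 libraries. The median coefficient of variation (CV, the SD as a percentage of the mean) was 18.2%, against 34.0% over the 13977 genes tested in all comparisons and 27.6% over those with a mean scaled read count of 10 or more. It was below 20% in 33 of the 50 genes, a share of 66%, compared with 27.9% of the genes at 10 or more. The highest library was less than 2 times the lowest in 38 of the 50 genes (76%), compared with 35.9% of the genes at 10 or more. ATP5H had the lowest CV of the 50, and its highest library was 1.40 times its lowest. Counting error alone would give a median CV of 12.3% at these depths, against 17.0% over all tested genes and 13.7% over those at 10 or more. What part read depth had in the contrast was not tested. The median ratio of CV to counting CV was 1.51 in the 50 genes, 1.73 over all tested genes and 1.94 over those at 10 or more. Of the 50 genes, 3 had a CV at or below the counting CV and 10 had one over 2 times it. The largest ratios were those of ATP5B (3.74) and COX4I1 (3.29).

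**Figure D1:**
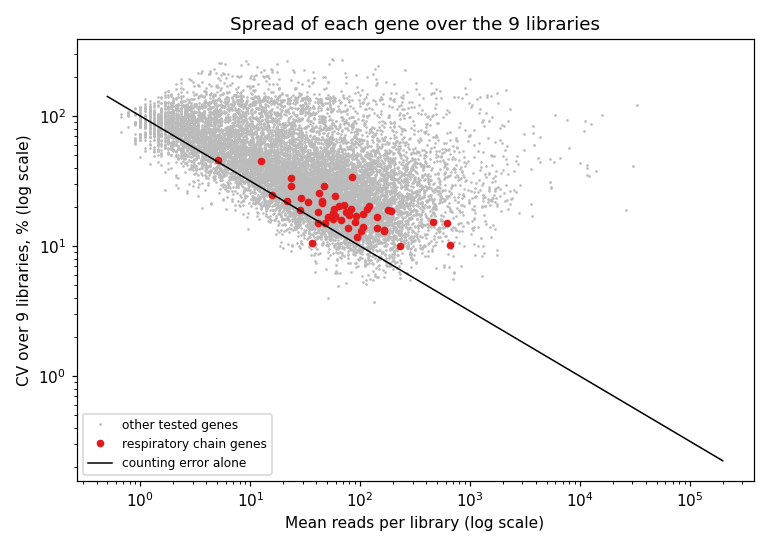
Each point is a tested gene, with its mean reads per library on the x axis and its CV over the 9 libraries on the y axis, both on log scales; red points are the 50 respiratory chain genes, grey points the other genes, and the line is the CV that counting error alone gives. The red points, with a median CV of 18.2%, lie in the lower part of the grey cloud at their depth, and all but 3 lie above the line.

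Next came NDUFA4, with 3.09 times its counting CV. It had 50.9, 77.5 and 109.6 in Control replicates 1 to 3, 74.3, 137 and 95.1 in Fused, and 48.3, 90.7 and 68.2 in ISC (chromosome 10, 28056813 to 28062920). The Control libraries alone differed by more than 2-fold, and all 3 groups overlapped. Its CV was 33.8%.

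**Figure D2:**
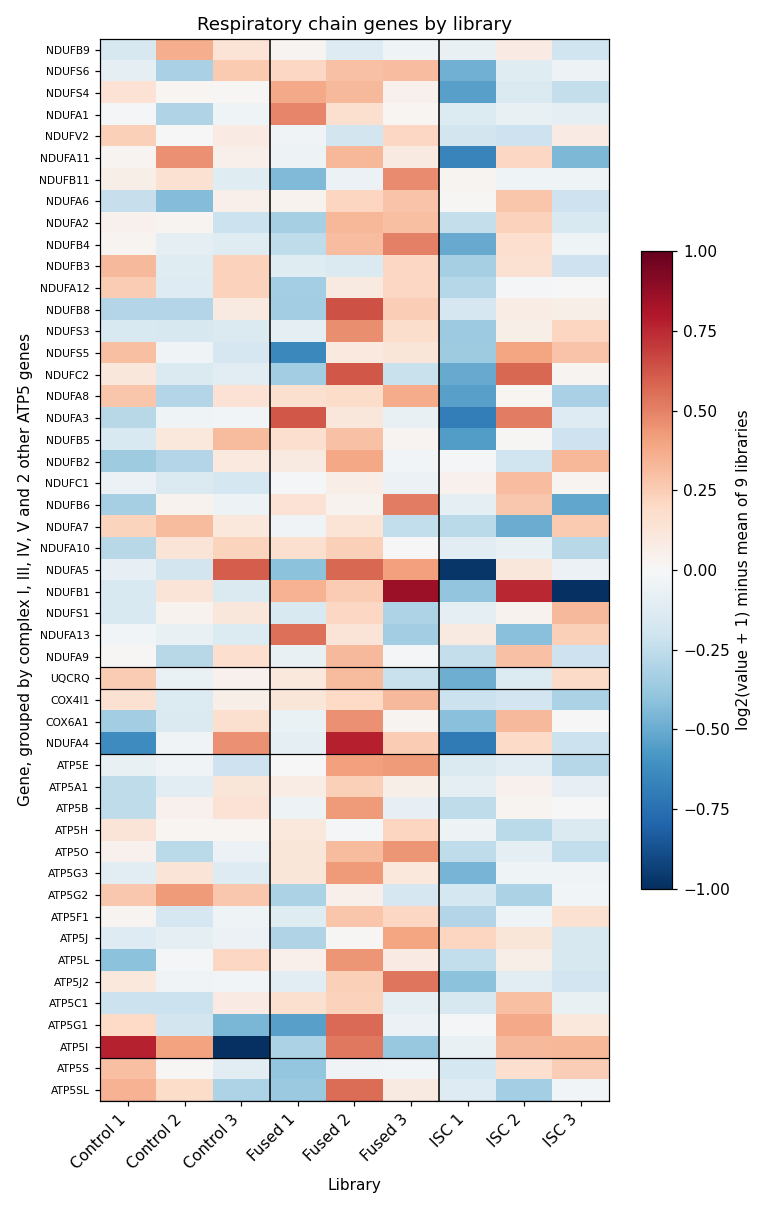
The heat map shows log2(value + 1) of each gene (rows, grouped by complex) in each library (columns) minus the mean of that gene over the 9 libraries; red is above and blue below that mean, and colours saturate at 1, for 49 of the 50 genes. Fused replicate 2 is red in most rows (median deviation 0.27) and ISC replicate 1 is blue in most rows (-0.24), and the saturated cells belong to the rarely read NDUFB1 and ATP5I.

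Library by library, the median deviation of the 50 genes from their own means was -0.02, -0.05 and 0.03 on the log2 scale in Control. Replicates 1, 2 and 3 stood at -0.03, 0.27 and 0.10 for Fused but at -0.24, 0.05 and -0.07 for ISC. Over all tested genes the same medians stayed between -0.02 and 0.04. The groups therefore overlapped, and the spread within Fused and within ISC was wider than within Control. In both operated groups the library or libraries with over 5% haemoglobin reads had the higher medians. What part the blood content had in this was not tested.

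The first comparison, of Fused with Control, concerns the fused level. None of the 50 genes passed the test (limma, Benjamini-Hochberg adjusted p under 0.05 over 14686 genes), where 6.58% of all tested genes did. The adjusted p of the 50 genes lay between 0.123 and 0.985. At an unadjusted p under 0.05 there were 3 members, or 6% of the 50, against 22.8% of all tested genes. With edgeR and with DESeq2 on recovered reads the count was also 0, where 6.78% and 9.34% of the tested genes were called, and 1 and 0 members had an unadjusted p under 0.05. The authors' deposited table called 0 members, with a smallest q of 0.517. Groups did not overlap in 8 of the 50 genes, a share of 16%, against 29.3% of all tested genes. The median log2 change was 0.17 against 0.02 over all tested genes, with 38 genes above 0 and 12 below. Of all tested genes 7627 were above 0 and 7059 below. The direction was shared by the cytosolic ribosome, with 69 of 73 tested genes above 0 (median 0.24). The 95% interval of the change lay inside a 2-fold range in both directions for 47 of the 50 genes, compared with 39.5% of all tested genes and 54.2% of those with a mean of 10 or more.

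Among complex I genes the largest differences from Control were those of NDUFB1 and NDUFA6, accessory subunits. NDUFB1 had 10.4, 12.8 and 10.4 in Control and 15.1, 14.1 and 21.9 in Fused, a log2 change of 0.54 (95% interval -0.22 to 1.31). These are values of the 1-exon row. The 3-exon locus that RefSeq names NDUFB1 differed by 0.28 (95% interval -0.73 to 1.29). NDUFA6 (scaffold Un0036, 508767 to 515186) had 43.4, 37.5 and 53.1 in Control and 52.3, 59.3 and 62.3 in Fused, a log2 change of 0.38 (95% interval -0.09 to 0.84). NDUFB1 values did not overlap and NDUFA6 values did, and neither gene passed the test (limma adjusted p = 0.383 and 0.312). In complex III, UQCRQ (chromosome 3, 15890334 to 15891568) overlapped between the groups, with 107, 85.4 and 92.2 in Control and 96.4, 112 and 76.5 in Fused. In complex IV, NDUFA4 differed by 0.38 (95% interval -0.33 to 1.09) and COX6A1, the widely expressed form of subunit VIa (chromosome 21, 12132318 to 12134946), by 0.25 (-0.21 to 0.71). COX6A1 had 93.3, 108 and 133 in Control and 114, 164 and 121 in Fused, with overlap.

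Of the ATP synthase genes, 13 of 14 had a positive difference. ATP5O, the stalk subunit known for oligomycin sensitivity (scaffold Un0031, 698893 to 707069), had 197, 158 and 184 in Control and 208, 238 and 259 in Fused. All Fused libraries lay above all Control libraries, with a log2 change of 0.39 (SE 0.16, limma adjusted p = 0.191). ATP5E (scaffold Un0057, 416509 to 419424) had 171, 175 and 156 in Control and 180.0, 239 and 242 in Fused, a log2 change of 0.39 (SE 0.166, limma adjusted p = 0.211). Its lowest Fused library was only just above its highest Control library, and it is named in this comparison after its values were seen. The exception was ATP5G2, which was lower in Fused and is described with the genes of the c subunit.

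Several marker lists moved with this comparison. All 6 tested erythroid markers rose (median log2 change 4.85), their summed scaled read count was 55.1 to 162 in Control and 1203 to 6927 in Fused, and no marker was at 0. All 6 markers of dividing cells rose too (median 4.17), with sums of 12.8 to 20.01 in Control and 116 to 897 in Fused. Of the ligament fibroblast markers all 9 tested were lower in Fused and 5 of them fell (median -1.46), with sums of 18958 to 35467 in Control and 5225 to 22389.6 in Fused. All 11 tested skeletal muscle markers had negative changes (median -2.86), and 0 passed in limma. The muscle sums overlapped, at 35.9 to 3583 in Control and 39.4 to 51.3 in Fused. The part of these marker lists in the members' values was not tested. Without Fused replicates 2 and 3, the libraries with the most haemoglobin reads, the median change of the 50 genes was 0.0027, with 25 genes above 0 and 25 below. That fit took the spread of the lone Fused library from the Control libraries.

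The second comparison, of ISC with Control, concerns the stress-loaded level and uses the same Control libraries. Here too 0 of the 50 genes passed the test in limma, where 0.0488% of 14348 tested genes did (7 genes). The smallest adjusted p among the 50 was 0.352. At an unadjusted p under 0.05 there was 1 member, ATP5G2, against 11.5% of all tested genes. The count was also 0 with edgeR and with DESeq2, where 0.0348% and 1.61% of genes were called, with 1 member at an unadjusted p under 0.05 in each. The authors' deposited table called 0 members, with a smallest q of 0.658. Groups did not overlap in 6 of the 50 genes (12%), against 18.3% of all tested genes. The median log2 change was -0.05, with 19 genes above 0 and 31 below, beside 0.0038 over all tested genes. Genes of the cytosolic ribosome also lay mostly lower, 59 of 73 tested (median -0.14). The 95% interval lay inside a 2-fold range for 44 of the 50 genes, compared with 40.0% of all tested genes.

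COX4I1 had 512, 418 and 479 in Control and 397, 402 and 370.2 in ISC. Every ISC library lay below every Control library, but the log2 change of -0.27 (95% interval -0.63 to 0.09) did not pass (limma adjusted p = 0.548). NDUFS4, an accessory subunit of the electron-transferring arm (chromosome 11, 69585379 to 69698365), had 90.5, 83.1 and 82.6 in Control and 55.8, 74.0 and 69.2 in ISC. These groups did not overlap either (log2 change -0.37, limma adjusted p = 0.488); NDUFS4 is named here after its values were seen. The largest differences in complex I were those of NDUFA11 and NDUFA5, both accessory subunits. NDUFA11 (scaffold Un1611, 12696 to 13826) had 28.3, 38.3 and 28.7 in Control and 17.2, 32.2 and 20.1 in ISC, and NDUFA5 (chromosome 7, 21006377 to 21026973) had 20.7, 19.2 and 33.9 in Control and 10.7, 23.9 and 21.1 in ISC. Both overlapped, with log2 changes of -0.48 (95% interval -1.20 to 0.25) and -0.42 (-1.33 to 0.50). NDUFA4 and UQCRQ differed by -0.18 (-0.95 to 0.59) and -0.22 (-0.73 to 0.28). ATP5I was at 8.48, 6.39 and 0.87 in Control and 4.29, 5.97 and 6.02 in ISC, an estimate of 0.33 whose interval from -1.20 to 1.85 leaves the direction undetermined. Single libraries weighed on the complex I estimates: without ISC replicate 1 the change was -0.08 for NDUFA5 and -0.30 for NDUFA11, and without ISC replicate 2 it was -0.63 and -0.73.

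Markers of cartilage and fat differed between ISC and Control as well. All 7 chondrocyte markers were higher in ISC and 4 of them rose (median log2 change 4.77), with summed scaled read counts of 337 to 1238 in Control and 8911 to 14432 in ISC. All 8 tested adipocyte markers were lower in ISC and 0 passed in limma (median -3.56), with sums of 1669.6 to 6276 in Control and 926 to 1119 in ISC. All 11 tested skeletal muscle markers had negative changes (median -1.65), with overlapping sums of 35.9 to 3583 in Control and 34.6 to 912 in ISC. The tested erythroid (5), granulocyte (6) and dividing-cell (5) markers all had positive changes, with medians of 3.26, 3.53 and 2.58. Of the muscle, blood and dividing-cell markers 0 passed. The part of these marker lists in the members' values was not tested.

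**Figure D3:**
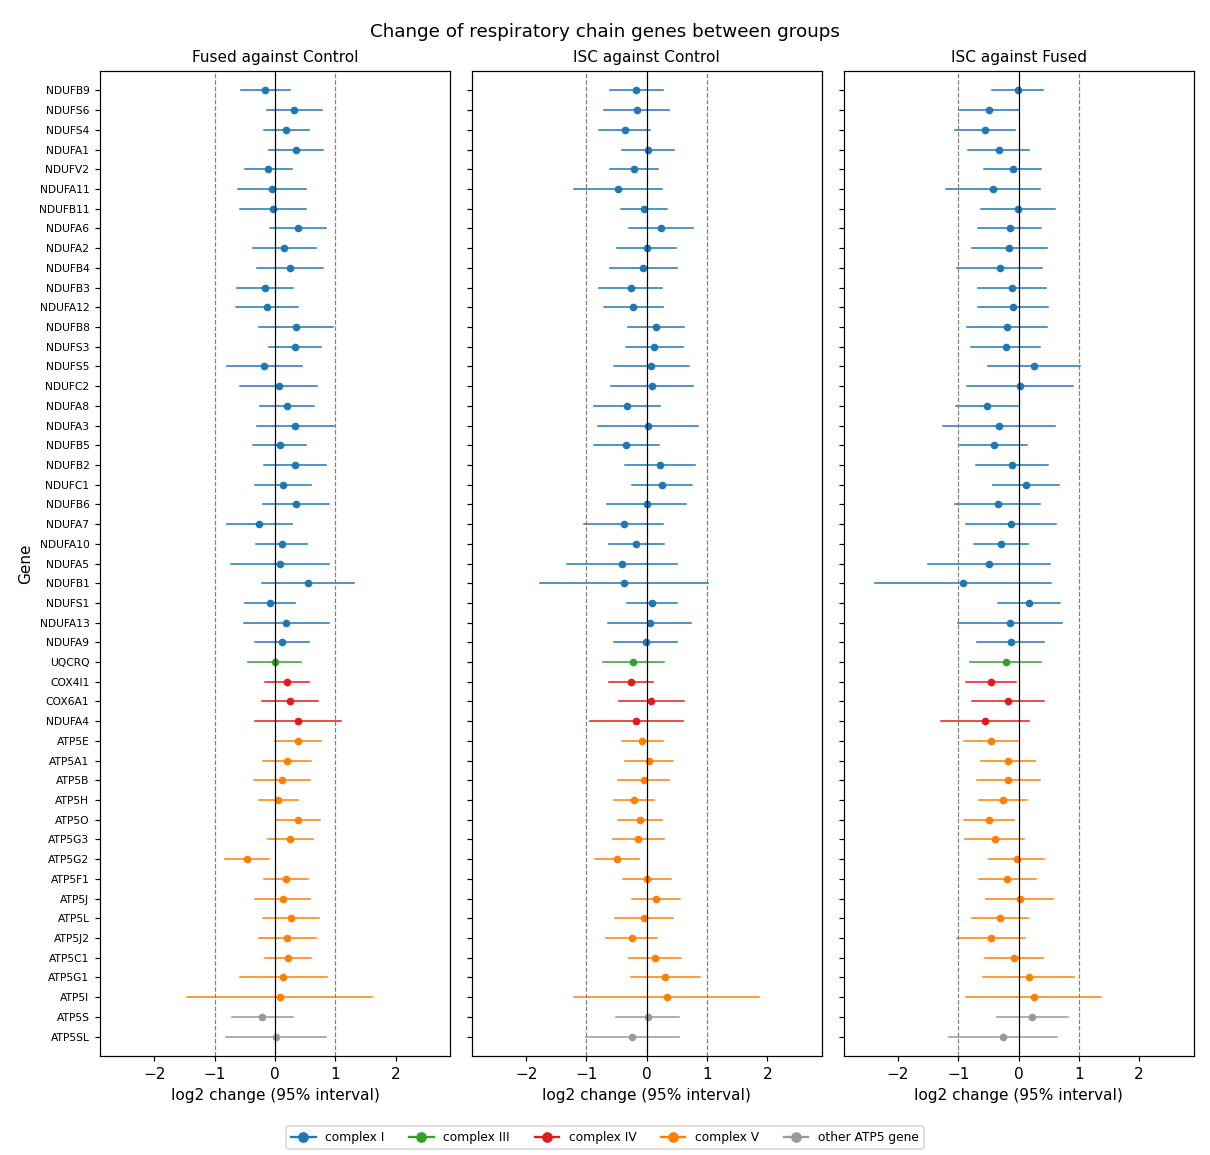
Points show the log2 change of 49 of the 50 genes in each comparison from limma and lines its 95% interval, coloured by complex; the dashed lines mark a 2-fold change in either direction. In the comparisons with Control, 46 and 43 of the 49 intervals lie between the dashed lines, and 36 do for ISC against Fused, where 41 of the 49 points lie left of 0.

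ISC was compared with Fused, the operated groups with each other, and 0 of the 50 genes passed the test in limma, where 0.279% of 15404 tested genes did. At an unadjusted p under 0.05 there were 5 members, a share of 10% against 10.3% of all tested genes. With edgeR and with DESeq2 the count was 0, where 0.188% and 2.06% of genes were called, with 2 and 1 members at an unadjusted p under 0.05. The authors' deposited table called 0 members, with a smallest q of 0.561. Most genes lay lower in ISC, 42 of 50, with a median log2 change of -0.19, while the median over all tested genes was -0.07 and 8571 of these lay lower. The direction was not particular to the 50 genes. Of 73 tested genes of the cytosolic ribosome 70 lay lower in ISC (median -0.40). So did 32 of 44 assembly factors (median -0.22) and 49 of 70 genes of the mitochondrial ribosome (median -0.15). Centring each library on its median moved the median over all tested genes by 0.12 in this comparison and left the members' median at -0.07 with 33 of 50 genes below 0. In Fused against Control the same centring moved the median of all genes by -0.11, to -0.08, and left the members' at 0.06 with 31 of 50 above 0. Groups did not overlap in 12 of the 50 genes (24%), all lower in ISC, against 15.4% of all tested genes in either direction.

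These 12 genes, named after their values were seen, were ATP5A1, ATP5E, ATP5G3, ATP5H and ATP5O of ATP synthase, COX4I1, and NDUFA1, NDUFA8, NDUFA10, NDUFB5, NDUFS4 and NDUFS6 of complex I. COX4I1 had 502, 530.0 and 577 in Fused beside 397, 402 and 370.2 in ISC, a log2 change of -0.46 (SE 0.179, limma adjusted p = 0.417). ATP5O, with 208, 238 and 259 in Fused, had 159.8, 178 and 161 in ISC, a change of -0.50 (SE 0.177, limma adjusted p = 0.374). ATP5E, with 180.0, 239 and 242 in Fused, had 162, 167 and 147 in ISC. Its change was -0.46 (SE 0.193, limma adjusted p = 0.472). COX4I1 lay below its Control range in all ISC libraries. ATP5O and ATP5E lay above their Control ranges in all Fused libraries, while their ISC libraries overlapped with Control.

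NDUFS4 had 107, 103 and 84.2 in Fused and 55.8, 74.0 and 69.2 in ISC, a log2 change of -0.56 (95% interval -1.05 to -0.06; limma adjusted p = 0.400). NDUFB1, the 1-exon row, had the largest estimate, -0.92, but its ISC libraries at 8.58, 20.3 and 3.01 overlapped with its Fused libraries and the interval ran from -2.38 to 0.54. The 3-exon locus that RefSeq names NDUFB1 did not share this direction, at 0.16 (95% interval -0.87 to 1.18). NDUFA4 differed by -0.56 (95% interval -1.29 to 0.18) and UQCRQ by -0.21 (-0.80 to 0.37), with overlap in both. Markers of fat and cartilage differed between the same groups. All 8 tested adipocyte markers were lower in ISC and 4 of them passed the test; their summed scaled read count was 3152 to 5789 in Fused and 926 to 1119 in ISC, with UCP1, the marker of brown fat, at 0 in both. All 7 chondrocyte markers were higher in ISC and 2 of them rose (median log2 change 2.94), with sums of 115 to 1369.9 in Fused and 8911 to 14432 in ISC. All 6 erythroid and all 7 granulocyte markers had negative changes (medians -1.75 and -2.14), but 0 passed in limma. The erythroid sums overlapped, at 1203 to 6927 in Fused and 395 to 7751 in ISC. All 9 tested ligament fibroblast markers had positive changes (median 2.51), and 0 passed. Their sums were 5225 to 22389.6 in Fused and 27377 to 96429 in ISC. The part of these marker lists in the lower levels of ISC was not tested. Without the 3 libraries with over 5% haemoglobin reads the median was -0.15 with 32 of 50 genes below 0. That fit sets 1 Fused library against 2 of ISC, and with so few libraries its calls say nothing about the members.

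Subunit c of ATP synthase forms the rotating ring in the membrane. It is encoded by ATP5G1, ATP5G2 and ATP5G3, whose products differ in the import signal but give the same mature protein; ATP5G1 and ATP5G3 are described beside ATP5G2 after its values were seen. ATP5G2 (chromosome 4, 37463276 to 37471157) had scaled read counts of 135, 150.1 and 135 in Control replicates 1 to 3, 89.4, 116 and 99.5 in Fused and 98.6, 89.5 and 109 in ISC. All 6 libraries from operated levels lay below all 3 Control libraries. The log2 change was -0.47 in Fused (SE 0.16, 95% interval -0.83 to -0.10, limma adjusted p = 0.123) and -0.50 in ISC (SE 0.159, 95% interval -0.86 to -0.13, limma adjusted p = 0.352), so neither passed after adjustment. These values share the Control libraries and are not independent of each other. ISC and Fused differed from each other by -0.03 (95% interval -0.49 to 0.42). ATP5G2 had the smallest p of the 50 genes in both comparisons with Control (0.0181 and 0.0147 before adjustment). The values were 89.4, 98.6 and 109 in the operated libraries with under 2% haemoglobin reads (Fused replicate 1, ISC replicates 1 and 3) and 89.5 to 116 in the others. Such a separation was not particular to ATP5G2. NDUFC1, named after its values were seen, separated upward, with 32.18 to 34.88 in Control, 34.98 to 38.22 in Fused and 37.12 to 45.35 in ISC. The CV of NDUFC1 was only 0.64 times its counting CV. How many of all tested genes separate both operated groups from Control was not counted.

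**Figure D4:**
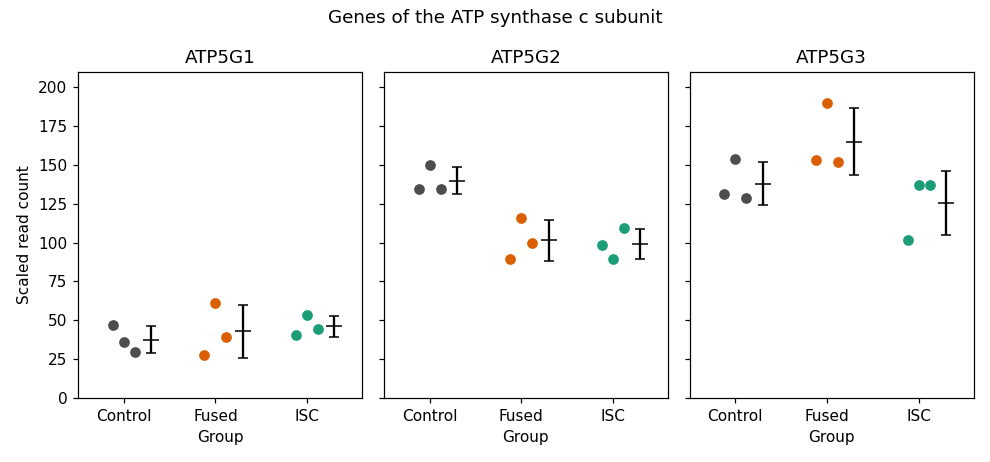
Points are the scaled read counts of the 3 libraries of each group for the 3 genes of ATP synthase subunit c, and the horizontal mark with bars is the mean ± SD. ATP5G2 lies at 135 or more in Control and at 116 or less in Fused and ISC, while the groups overlap for ATP5G1, and for ATP5G3 in both comparisons with Control.

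ATP5G3 (chromosome 7, 114823438 to 114826605) did not show the pattern of ATP5G2, with 131, 154 and 129 in Control, 153, 190.1 and 152 in Fused, and 102, 137 and 137 in ISC. ATP5G1 (chromosome 19, 38526415 to 38528938) was the least read of the 3, with 47.1, 35.9 and 29.6 in Control, 27.9, 61.4 and 39.4 in Fused, and 40.7, 53.7 and 44.1 in ISC. As a share of the summed level per kilobase of the 3 genes, ATP5G2 made up 42.7%, 44.0% and 45.9% in Control replicates 1 to 3. It made up 31.2% to 34.0% in Fused and 40.4%, 31.5% and 37.3% in ISC. The Control shares were thus higher than those of both operated groups, which overlapped with each other. ATP5G3 made up 40.6% to 44.2% in Control and 50.2% to 55.4% in Fused. The summed level per kilobase of the 3 genes was 429 ± 32.0 (SD, n = 3) in Control, 421 ± 71.1 in Fused and 370.4 ± 35.4 in ISC. Fused overlapped with both other groups, while the highest ISC library (396.8) lay just below the lowest Control library (397.7).

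The summed scaled read count of the 50 genes was 5059, 5090.0 and 5488 in Control replicates 1 to 3, 5289.7, 6367 and 5801 in Fused, and 4532, 5335 and 4952 in ISC. By this measure Control overlapped with both operated groups, and only the highest ISC library exceeded the lowest Fused library. As a share of the reads in genes, without the authors' scaling, the 50 genes took 0.334%, 0.341% and 0.380% in Control, 0.369%, 0.426% and 0.356% in Fused, and 0.296%, 0.301% and 0.298% in ISC. On this scale every ISC library lay below every other library. Ligament fibroblast markers summed to 18958 to 35467 scaled read counts in Control and 27377 to 96429 in ISC, with overlap and 0 of 9 called in limma. The chondrocyte markers stood clear of Control in all ISC libraries and the adipocyte markers lay below it, as given above. The part of these cell types in the lower shares of ISC was not tested.

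**Figure D5:**
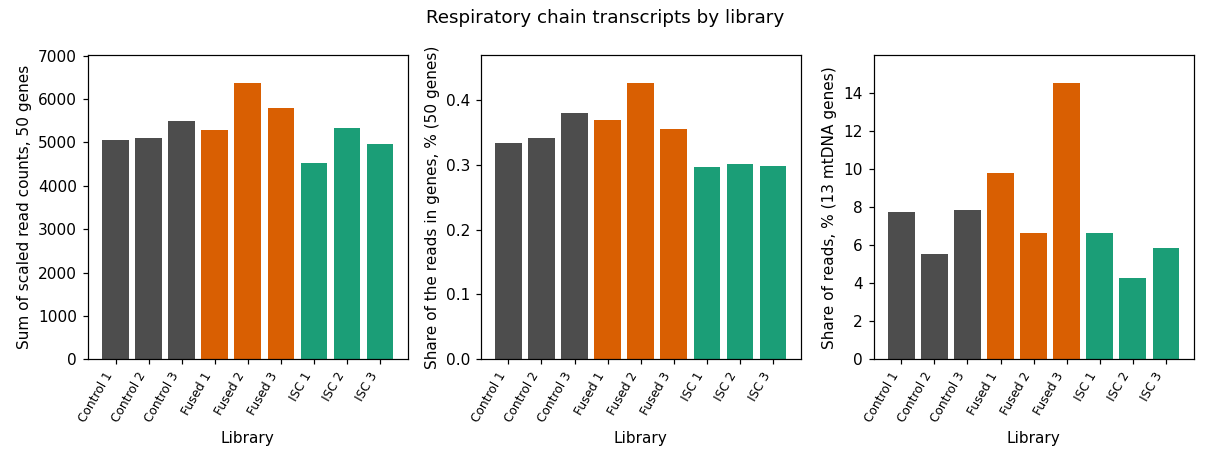
Bars show, for each library, the summed scaled read count of the 50 genes (left), their share of the reads in genes (middle) and the share of the 13 genes of mitochondrial DNA (right); grey is Control, orange Fused and green ISC. The ISC bars are the lowest in the middle panel, at 0.296% to 0.301%, but overlap with Control in the left panel.

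The 13 respiratory chain genes of mitochondrial DNA took 5.56% to 7.87% of the reads in Control, 6.64% to 14.5% in Fused and 4.29% to 6.63% in ISC. The 50 nuclear genes summed to 4.30% to 6.14% of the mitochondrially encoded sum in Control, 2.45% to 6.42% in Fused and 4.47% to 7.01% in ISC. Fused replicate 3, with the most mitochondrially encoded reads, had the lowest ratio, and ISC replicate 2, with the fewest, the highest. Their median log2 changes were 0.49 in Fused against Control, -0.17 in ISC against Control and -0.70 in ISC against Fused, and 0 of the 13 passed the test in limma in each. ND6, the complex I gene on the light strand, had the smallest p in Fused against Control, with 1963 ± 345 in Control and 4945 ± 2144 in Fused (limma adjusted p = 0.0798).

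A further 22 rows under locus identifiers carried a subunit name in RefSeq, from which names alone were taken (assembly mOryCun1.1). Of these, 20, 20 and 21 were tested in Fused against Control, ISC against Control and ISC against Fused, and 0 passed in each. At an unadjusted p under 0.05 there were 4, 0 and 1. These are shares of 20%, 0% and 4.76% against 22.8%, 11.5% and 10.3% of all tested genes. The median log2 changes of the locus rows were 0.33, 0.02 and -0.36 in the same order. In Fused against Control all 20 were above 0, and 6 did not overlap, a share of 30% close to the 29.3% of all tested genes. In ISC against Control 2 of 20 did not overlap (10% against 18.3%). In ISC against Fused 6 of 21 did not (28.6% against 15.4%), all lower in ISC. COX7A2, the general form of subunit VIIa, had 78.2, 77.5 and 77.4 in Control, 91.7, 98.6 and 108 in Fused, and 85.8, 93.1 and 84.3 in ISC. Both operated groups lay above Control for COX7A2, by log2 changes of 0.35 and 0.17 (limma adjusted p = 0.218 and 0.702). COX5B, a subunit at the matrix face of complex IV, had 104, 98.2 and 117 in Control, 119.6, 173 and 145 in Fused, and 123, 103 and 115 in ISC. Like COX7A2, it is named after its values were seen, and only its Fused libraries stood clear of Control.

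Complex III was represented mainly by these locus rows. The rows given here were picked after their values were seen. UQCRH, the hinge protein next to cytochrome c1, was the highest at 333 ± 73.7 per kilobase (SD, n = 9), and the core proteins UQCRC1 and UQCRC2 lay at 72.7 ± 15.8 and 88.6 ± 14.4 per kilobase. In complex IV, COX6C and COX7C lay at 415 ± 69.2 and 295 ± 55.8 per kilobase, between COX4I1 and the other subunits.

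The isoforms known from muscle and lung were rare. COX6A2, the form of subunit VIa of heart and skeletal muscle, had 4 reads in all 9 libraries beside 1085 for COX6A1, and 2.83 of its scaled read count lay in Control replicate 1, the library with the highest muscle markers. COX7A1, the muscle form of subunit VIIa, had 13.2, 4.79 and 3.48 in Control, 6.97, 7.04 and 8.75 in Fused, and 2.14, 0 and 6.02 in ISC. Its highest library was again Control replicate 1, where it made up 14.4% of the reads of COX7A1 and COX7A2 together. In the other libraries that share was at most 7.48%. COX4I2, the lung-type form of subunit IV, had 23 reads beside 4181 for COX4I1. A scaled read count of 2.40 to 3.58 stands for 3 reads, and COX6A2 and most COX4I2 values lie at or below it. COX6A2 did not reach the filter and was not tested. COX4I2 lay higher in all Fused than in all Control libraries (log2 change 1.03, limma adjusted p = 0.305). COX7A1 lay lower in all ISC than in all Fused libraries (log2 change -1.61, limma adjusted p = 0.517). Both genes overlapped in their other comparisons, and neither passed in any. At this depth other differences in these isoforms may have gone undetected.

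Lists of genes that build, regulate and accompany the chain held 1 call in all. Complex II, the succinate dehydrogenase, is wholly nuclear-encoded, and 0 of its 4 genes passed in any comparison. SDHA, its flavoprotein subunit, was at 291 ± 7.47 in Control, 282 ± 33.4 in Fused and 246 ± 16.6 in ISC (limma adjusted p = 0.545 for ISC against Control). Of 44 tested assembly factors 0 passed in each comparison; FOXRED1, an assembly factor of complex I, had the smallest p in both comparisons with Control and was at 45.5 ± 4.05 in Control, 33.9 ± 1.34 in Fused and 22.8 ± 10.2 in ISC (limma adjusted p = 0.258 and 0.346). Of 15 tested regulators of mitochondrial biogenesis 0 passed; PPARGC1A, a coactivator that raises mitochondrial number, was at 8.84 ± 3.78 in Fused and 4.31 ± 1.98 in ISC (limma adjusted p = 0.639). PPRC1, its relative, was at 44.9 ± 7.77 in Control and 76.3 ± 33.5 in ISC (limma adjusted p = 0.484).

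Of 17 enzymes of the citric acid cycle and of pyruvate dehydrogenase 0 passed in each comparison. Citrate synthase (CS) RNA was at 289.8 ± 31.5 in Control, 377 ± 15.9 in Fused and 269 ± 25.2 in ISC. The limma adjusted p of CS was 0.170 for Fused against Control and 0.374 for ISC against Fused. Of 24 genes of the outer membrane and protein import 0 passed, with VDAC3, a porin, at 94.3 ± 19.1 in Control and 188 ± 72.1 in Fused (limma adjusted p = 0.120). Of 70 tested genes of the mitochondrial ribosome 0 passed; MRPS17 was at 20.4 ± 3.02 in Control and 7.28 ± 2.42 in Fused (limma adjusted p = 0.0587). Of 7 tested mitochondrial carriers 1 rose in Fused against Control and 0 passed otherwise. It was UCP2, a carrier abundant in white blood cells, which went from 28.0 ± 4.50 to 218 ± 144 (log2 change 2.64, SE 0.507, limma adjusted p = 0.0233). UCP2 was at 135 ± 135 in ISC. The granulocyte markers moved with it: all 7 rose in Fused against Control, and their sum was 87.8 to 267 in Control and 2138 to 22569.6 in Fused. The part of blood cells in the UCP2 difference was not tested.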

How the data were processed

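RNA of 9 libraries of rabbit ligamentum flavum (3 Control, 3 Fused, 3 ISC) was mapped by TopHat to oryCun2, with Cufflinks used afterwards, per the labels, the series' design and the submitters' processing notes. For the counting tool, annotation and versions the sources used here give nothing. The deposited files are 3 tables with the same 9 columns of a normalized signal, which are reads per gene divided by a library size factor (TMM in the table names). The deposited p-values, q-values and calls (an other column of 1 or 0) are the authors' own. Every value was a whole multiple of the smallest value of its library (100%, tolerance 1e-06), so dividing by it recovered the reads. For Fused replicate 2 and ISC replicate 3 recovery is hard to tell from rounding, 1 read being worth almost exactly 1. A row without a gene name (1 row) was left out. Recovered reads per library were 1233155 to 1869209, so 3 reads are worth 2.40 to 3.58.

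Pairs of groups were tested with limma 3.58.1 in R 4.3.3 (mean-variance trend, log2(value + 1)) over all genes reaching 1 in 3 or more of the 6 libraries, two-sided, with Benjamini-Hochberg adjustment over all tested genes and a threshold of 0.05. The scale understates changes of low genes. All 50 members passed the filter. Intervals are limma's 95% intervals, not adjusted for the number of genes. edgeR 4.0.16 and DESeq2 1.42.0 on recovered reads were alternatives, beside other scalings, filters, pseudocounts, libraries left out and a replicate block. The fit was tested on simulated counts. The members and lists were chosen with earlier results of these data known. Genes named with a change are the 2 members of each complex with the largest absolute log2 change in a comparison or the highest mean; others are said to be named after their values were seen. Of other lists, called genes or a gene with the smallest p are named, but not for every list and comparison. Left out were MDH2, MRPS6 and ND3 (lower in ISC than Control) and MRPL9, NDUFAF6, TOMM5 and SLC25A5 (lower in ISC than Fused), among others. TIMM17B and RPL15, higher in ISC than Control, and RPL3L, higher in ISC than Fused, were left out too. Libraries of a group correlated with r between 0.942 and 0.981, and every pair differed by more than counting noise, with a chi-square per gene of 4.32 or more. Coordinates are those of the deposited tables. The values of 1 member are not reported here by gene, though it is in every count and sum over the 50. No sequences were printed, since the tables used hold none.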

Additional observations from a re-analysis of the deposited data

How the results depend on the processing

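In all 53 alternative fits 0 of the 50 genes passed the test, which says little for the fits in which hardly any gene passed, and the smallest adjusted p of any of them was 0.0545 (Fused against Control without Fused replicate 1). The count over all genes rested on single libraries: leaving out 1 library at a time gave 0 (without Control replicate 1, Control replicate 2 or Fused replicate 3) to 2050 genes (without Fused replicate 1) for Fused against Control instead of 966, 2 to 38 for ISC against Control instead of 7, and 0 to 29 for ISC against Fused instead of 43. The other settings with all libraries gave 25 to 1371, 3 to 231 and 0 to 318 genes. Without Fused replicates 2 and 3 there was 1 gene for Fused against Control, and without these and ISC replicate 2 there were 4 for ISC against Fused. The members' median log2 change moved by more than the replicate spread only without Fused replicates 2 and 3, where it was 0.0027 instead of 0.17. Leaving out 1 library at a time it ranged from 0.10 (without Fused replicate 2) to 0.23 for Fused against Control, from -0.15 (without ISC replicate 2) to 0.0094 (without ISC replicate 1) for ISC against Control and from -0.25 to -0.10 (without ISC replicate 1) for ISC against Fused. Some named genes changed sign. UQCRQ in Fused against Control was 0.0068 with DESeq2 and 0.031 without Fused replicates 2 and 3, and -0.13 to 0.14 with 1 library left out. NDUFA4 in Fused against Control was -0.025 without Fused replicates 2 and 3, and in ISC against Control it ranged from -0.46 to 0.089 with 1 library left out. ATP5I in ISC against Control ranged from -0.39 to 0.78 with 1 library left out. Other named genes kept their sign but moved by over 1.5 times with 1 library left out. In Fused against Control these were COX6A1 (0.09 to 0.39), NDUFA4 (0.10 to 0.65) and NDUFB1 (0.36 without Fused replicate 3). In ISC against Control they were NDUFA5 (-0.63 to -0.08), NDUFA11 (-0.73 to -0.30) and UQCRQ (-0.39 to -0.05). In ISC against Fused they were NDUFB1 (-1.51 to -0.31), NDUFA4 (-0.78 to -0.33) and UQCRQ (-0.38 to -0.04). The cause of these changes was not tested. ATP5G2 stayed between -0.64 and -0.38 in Fused and between -0.57 and -0.42 in ISC against Control, over 18 and 17 alternative fits, with adjusted p of 0.0662 to 0.357 and 0.234 to 0.746. Same-numbered libraries deviated together with r between -0.06 and 0.03, -0.05 and 0.15, and -0.10 and 0.31 in Fused against Control, ISC against Control and ISC against Fused. In ISC against Fused the highest r of libraries with different numbers was 0.28. With 3 libraries per group, centred on the group mean, such values cannot settle whether the libraries are paired. The main fit took no pairs. With the replicate block 0 members and 719, 3 and 88 genes in all passed. The fit without 3 haemoglobin-rich libraries was added after seeing the data. At these depths the rarely read ATP5I and NDUFB1 and the muscle isoforms are limited by counting error.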

Other observations

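Outside the 50 genes, the 5 rows whose level most resembled the summed scaled read count of the respiratory chain genes over the 9 libraries were sought among 5571 rows with a mean of 50 or more. They were ARL6IP1 (a membrane-shaping protein of the endoplasmic reticulum), an unnamed locus and MAP3K11 (a kinase upstream of JNK), each with a Spearman rho of 0.967, and DHRS4 (a reductase of retinoids and other carbonyls) and HMGB1 (an abundant chromatin protein), each with 0.95. ARL6IP1 had 139.5, 186 and 289.7 in Control replicates 1 to 3, 178, 319.8 and 256 in Fused, and 92.2, 246 and 108 in ISC. HMGB1 had 545, 578 and 616 in Control, 565.5, 937 and 819 in Fused, and 475, 816 and 554 in ISC. HMGB1 was highest in Fused replicates 2 and 3 and ISC replicate 2, the libraries with over 5% haemoglobin reads. ARL6IP1 was high in these too, but Control replicate 3, with 0.249% haemoglobin reads, lay above both Fused replicate 3 and ISC replicate 2. With 9 libraries and 5571 rows such values are a description of these libraries and carry no test.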
